A study of Mus musculus with 2 samples.

Results

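Mir22, Mir132, Mir212 and Mir210 are 4 mouse microRNA genes linked to growth of heart muscle cells or to low oxygen, and they were followed in newborn heart. They were chosen by name, as the rows that GENCODE pairs with these symbols, and they make up 4 of the 1973 genes counted. Small RNAs under 30 nt were sequenced from 2 whole hearts of B6NCrl pups, a C57BL/6N substrain, at postnatal day 0. Replicate 1 is the heart of pup 1 and replicate 2 the heart of pup 3, with 1 library each, no treatment and no second condition. The labels give sex as not collected and 1 donor entry for both pups. They number the hearts as different pups and as separate biological replicates. A whole heart mixes muscle, vessel, connective tissue and blood cells.

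A microRNA gene is transcribed into a hairpin precursor, from which a short mature strand of either arm is loaded into an Argonaute protein. The seed, bases 2 to 8 of the mature strand, pairs with target messenger RNAs and lowers their output. In mice, Mir22 is a muscle-enriched microRNA needed for full hypertrophic growth of cardiomyocytes. Mir132 and Mir212 are transcribed together, promote cardiomyocyte hypertrophy in mice and target the autophagy regulator Foxo3. Mir210 is the best known target of hypoxia-inducible factor among microRNAs and represses mitochondrial iron-sulfur assembly genes.

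The mature strands of the 3′ arms are shown because they separate the 4 genes into seed groups; sequences are from RefSeq on GRCm38.p6, the build also called mm10, and capitals mark the seed.
mmu-miR-22-3p: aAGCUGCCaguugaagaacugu
mmu-miR-210-3p: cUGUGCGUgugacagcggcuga
mmu-miR-132-3p: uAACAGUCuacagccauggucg
mmu-miR-212-3p: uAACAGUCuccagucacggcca

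The strands of Mir132 and Mir212 carry the same seed, and they are identical at the first 9 bases and at 17 of 22 positions compared without gaps. Past base 9 they match at 8 of 13 positions. No other gene in the RefSeq table carries this seed, and the seeds of miR-22-3p and miR-210-3p occur in no other gene there. The 5′ arms of Mir132 and Mir212 do not share a seed, and match at 9 of 22 positions.
mmu-miR-132-5p: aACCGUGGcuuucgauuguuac
mmu-miR-212-5p: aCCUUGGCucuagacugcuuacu

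The deposited counts are per gene, so reads of the 5′ and 3′ arms of a hairpin are summed. The precursors of Mir132 and Mir212 are given with both mature arms in capitals, to show what 1 count can come from.
Mir132 precursor: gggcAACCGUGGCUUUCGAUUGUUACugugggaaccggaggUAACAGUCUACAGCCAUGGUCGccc
Mir212 precursor: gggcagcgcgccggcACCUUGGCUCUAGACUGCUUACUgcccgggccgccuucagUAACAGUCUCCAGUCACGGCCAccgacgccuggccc

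The precursors differ in length and base composition. Mir132 is the shortest at 66 nt, against 91 nt for Mir212, 95 nt for Mir22 and 110 nt for Mir210. The guanine and cytosine share is 57.6% in Mir132 and 55.8% in Mir22, but 69.2% in Mir212 and 69.1% in Mir210. Over 1005 RefSeq hairpins the median was 51.7%, and 96.9% had a lower share than Mir212 and 96.7% a lower share than Mir210. The predicted folding energy per nucleotide was lowest, that is most stable, for Mir132 at -0.56 kcal/mol, where 6.67% of hairpins were more stable. The others had -0.46 kcal/mol for Mir212 and -0.44 kcal/mol for both Mir22 and Mir210, beside a median of -0.41.

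Mir22 (ENSMUSG00000065529.1) lies on the plus strand at chr11:75463716-75463810 (mm10), within exon 2 of its noncoding host Mir22hg and of 1 noncoding transcript of the coding gene Tlcd2. Mir212 (ENSMUSG00000065590.1) lies at chr11:75173388-75173478 and Mir132 (ENSMUSG00000065537.1) at chr11:75173682-75173747, both on the plus strand and in intron 1 of the noncoding transcript 1700016P03Rik. They are 203 nt apart. Mir132 and Mir22 are neighbours on a larger scale, with 290 kb and 0 other counted microRNA genes between them. Mir210 (ENSMUSG00000065551.1) lies alone at chr7:141221384-141221493 on the minus strand and overlaps no other annotated gene. The nearest coding genes are Rassf7 at 2.73 kb and Phrf1 at 7.29 kb, both on the other strand.

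**Figure D1:**
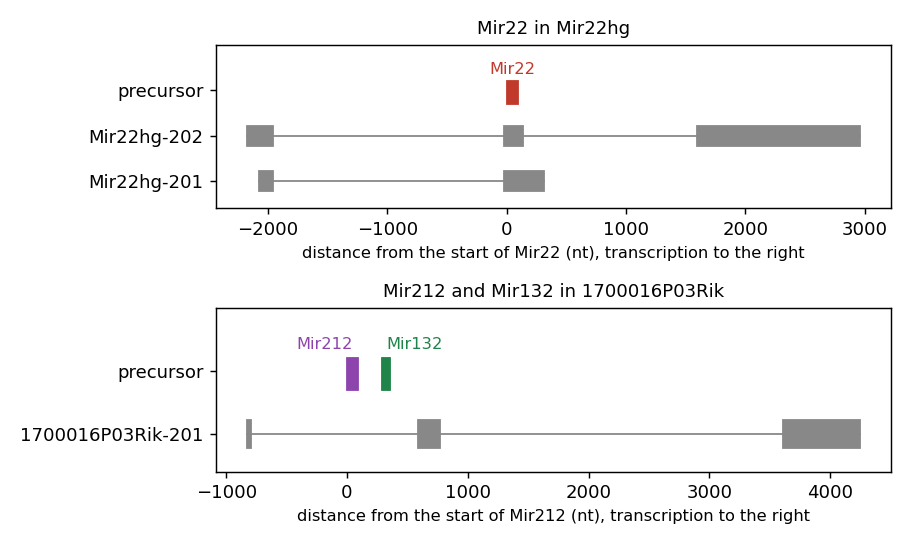
Precursors (coloured) and exons of the noncoding host transcripts (grey boxes, joined by lines for introns), with the distance from the first base of Mir22 or Mir212 in nt on the x axis. Mir22 sits within exon 2 of both Mir22hg transcripts, while Mir212 and Mir132 sit 203 nt apart in intron 1 of 1700016P03Rik.

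The libraries held 6373797 gene counts on the gene's strand in replicate 1 and 7630427 in replicate 2, so 3 counts stood at 0.471 and 0.393 CPM (counts scaled to a total of 1000000). Of all reads, 35.9% and 34.6% matched several places and are in no gene's count. None of the 4 precursors shares a stretch of 20 nt with another microRNA precursor, against 80 of the 358 genes with 10 or more counts in both libraries. Heart muscle markers were present, with counts for 6 of 6 and a summed share of 12.2% in replicate 1 and 12.5% in replicate 2. Of these, Mir208b, Mir208a and Mir499 had mean levels of 4977 to 104936 CPM, and the 3 others, whose sequences are repeated in the genome, had 2.08 to 8.89 CPM. Endothelium markers took 14.7% of counts in replicate 1 and 12.5% in replicate 2, and smooth muscle markers 9.41% and 8.77%. The endothelium share was mostly Mir126a, at 144115 and 122186 CPM, while Mir139 went the other way, at 2741 and 2989 CPM. Erythroid, leukocyte and skeletal muscle markers each took at most 0.138%. The leukocyte share rests on 2 of 3 markers, since 1 is not among the genes counted.

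Mir22 was by far the most abundant of the 4 genes. It had 145196 counts in replicate 1 and 167226 in replicate 2, which are 22780 and 21916 CPM. The mean level was 22348 ± 611 CPM (SD, n = 2), or 2.23% ± 0.0611 of all counts. It ranked 11 in replicate 1 and 12 in replicate 2 among all genes, and made up 94.2% and 94.5% of the summed level of the 4 genes. All ranks and shares rest on counts without reads that matched several places, so genes of repeated sequence can rank too low.

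Mir210 came next, far below Mir22 in both hearts. Its counts were 7050 in replicate 1 and 7656 in replicate 2, or 1106 and 1003 CPM, with a mean of 1055 ± 72.6 CPM. It ranked 71 and 74. Its level was 16.3-fold the median of the 358 genes detected in both libraries, which was 64.6 CPM.

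Mir132 and Mir212 were lower and unequal. Mir132 had 1706 counts in replicate 1 and 1870 in replicate 2, or 268 and 245 CPM, with a mean of 256 ± 16.0 CPM and ranks of 119 and 121. Mir212 had 125 and 166 counts, or 19.6 and 21.8 CPM, with a mean of 20.7 ± 1.52 CPM and ranks of 234 and 228. Mir212 was the only one of the 4 below the median detected gene, at 0.320 of its level, but it stood 41.7-fold and 55.3-fold above the level of 3 counts.

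**Figure D2:**
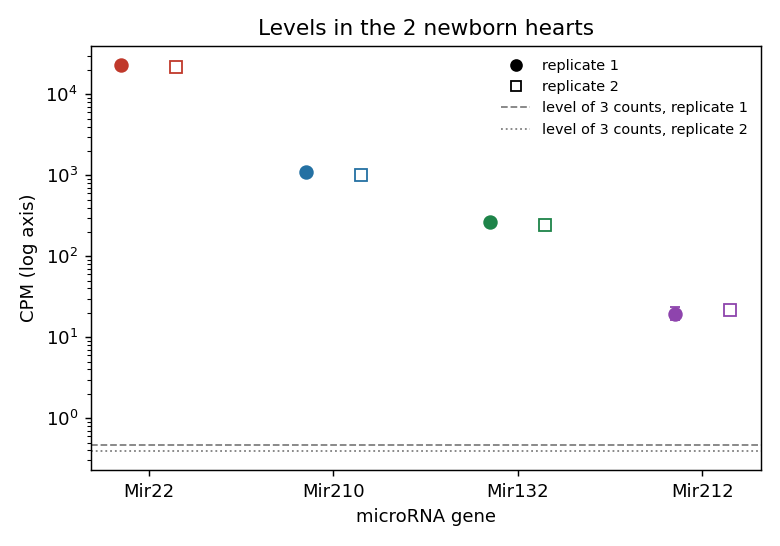
Level of each gene in CPM (log axis) in replicate 1 (filled circles) and replicate 2 (open squares), with exact Clopper-Pearson 95% intervals (mostly smaller than the symbols) and the level of 3 counts in each library as lines. The 4 genes keep the order Mir22, Mir210, Mir132, Mir212 in both hearts, from 22348 down to 20.7 CPM.

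The order Mir22, Mir210, Mir132, Mir212 was the same in both hearts, and no 2 of the 4 genes overlapped in level. All mature strands are 22 or 23 nt long, so no scaling by length was applied, but sequences can differ in how well they are captured, which these counts keep. Mir22 exceeded Mir210 by 20.6-fold in replicate 1 (20.1 to 21.1, an exact Clopper-Pearson 95% interval) and 21.8-fold in replicate 2 (21.3 to 22.4). Mir210 exceeded Mir132 by 4.13-fold (3.92 to 4.36) and 4.09-fold (3.89 to 4.31).

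Mir132 exceeded Mir212, its partner in the same intron, by 13.6-fold in replicate 1 (95% interval 11.4 to 16.5) and 11.3-fold in replicate 2 (9.61 to 13.3). The intervals overlap, and the exact Fisher test found no difference in this ratio between the hearts past the threshold (adjusted p = 0.190 over 12 pairs). The ratio in replicate 1 was 1.21 times that in replicate 2, with a Wald 95% interval of 0.952 to 1.54, so differences within these bounds are not excluded. Of the counts of both genes together, 5′ and 3′ arms included, Mir212 gave 6.83% in replicate 1 (5.71 to 8.08) and 8.15% in replicate 2 (7.00 to 9.43). Together they reached 287 CPM in replicate 1 (274 to 301) and 267 CPM in replicate 2 (255 to 279), and Mir22 exceeded this sum by 79.3-fold and 82.1-fold.

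Unequal neighbours were common in these hearts. Among 95 pairs of adjacent microRNA genes within 10 kb on 1 strand, with 10 or more counts each in both libraries, the median absolute log2 ratio was 2.54, and it ranged from 0.069 to 9.58. The pair Mir132 and Mir212 had 3.63, a ratio wider than 66.3% of the pairs and narrower than 32.6%. Among the 58 pairs in which neither gene shares 20 nt with another precursor, the median was 2.06, and 14 pairs were wider than Mir132 and Mir212. The absolute change in this log2 ratio between the hearts was 0.28, beside a median of 0.27 over the 95 pairs. These pairs share libraries and often genes, and their ratios are given as a description.

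**Figure D3:**
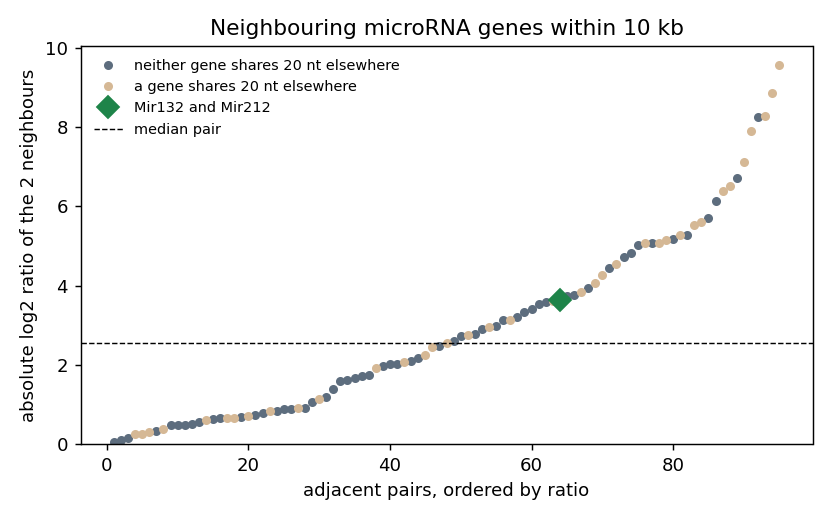
Absolute log2 ratio of the counts of 2 adjacent microRNA genes (mean of 2 hearts, y axis) for 95 pairs in rising order (x axis), coloured by whether a gene of the pair shares 20 nt with another precursor. Mir132 and Mir212 (diamond, 3.63) lie above the median pair at 2.54 (dashed line), and 31 pairs lie above them.

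Each of the 4 was set beside the genes directly above and below it in rank, which are near it in level by this choice. Mir22 lay between Mir23a at 22850 ± 256 CPM and Mir130a at 19880 ± 620 CPM; its range over the 2 hearts overlapped that of Mir23a, whose sequence is repeated in another gene, but not that of Mir130a. Mir210 lay between Mir10b at 1062 ± 41.9 CPM and Mir450b at 1053 ± 10.3 CPM, and overlapped both. Mir132 overlapped its neighbours Mir708 at 262 ± 1.30 CPM and Mir574 at 243 ± 35.7 CPM. Mir212 overlapped Mir3074-1 at 20.8 ± 0.794 CPM and Mir679 at 19.6 ± 1.37 CPM. Mir708 and Mir3074-1 share 20 nt with another precursor, so their counts are uncertain too.

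The genes most like each member over both hearts were found by the larger of the 2 absolute differences in log2(CPM + 1). They were Mir23a (0.072) and Mir130a (0.17) for Mir22, and Mir10b (0.041) and Mir381 (0.054) for Mir210. For Mir132 they were Mir708 (0.089) and Mir101a (0.16), which also has such a stretch, and for Mir212 they were Mir3074-1 (0.043) and Mir673 (0.049). With 2 libraries this is a likeness of level.

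**Figure D4:**
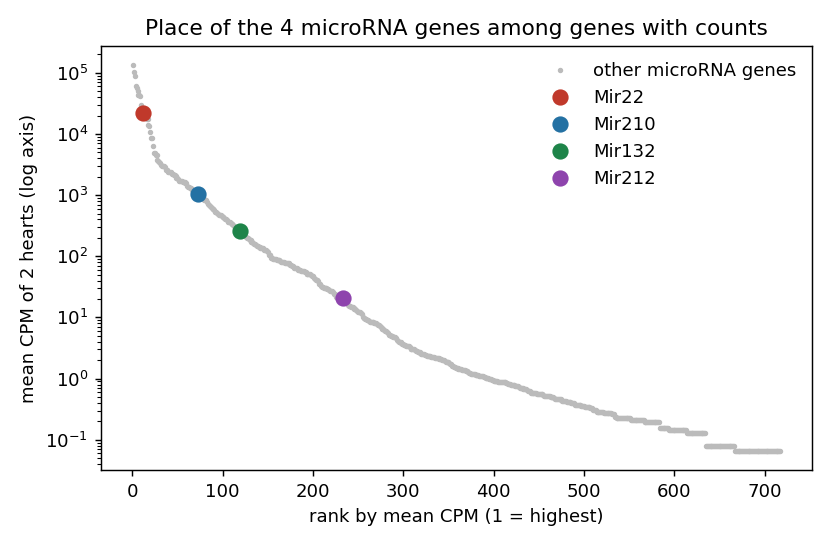
Mean CPM of 2 hearts (log axis) against rank for every gene with a count, with the 4 genes in colour. Mir22 is at rank 12, Mir210 at 73, Mir132 at 119 and Mir212 at 233. Reads that matched several places are in no gene's count, so genes of repeated sequence can rank too low.

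The 2 hearts gave similar levels for all 4 genes, though 2 values measure a spread poorly and Mir212 had few counts. The SD was 2.74% of the mean for Mir22, 6.89% for Mir210, 6.23% for Mir132 and 7.33% for Mir212. For each of 435 genes with 10 or more counts together, a 2-sided exact binomial test asked whether the counts divided between replicates 1 and 2 as the totals do, with adjustment over all 435. It compares libraries, and its error is that of counting. Differences between animals and between library preparations cannot be told apart, nor can fewer cells of a type and less RNA per cell.

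Mir22 was 1.04-fold higher in replicate 1 than in replicate 2 (95% interval 1.03 to 1.05; exact binomial test, Benjamini-Hochberg adjusted p = 5.13e-26). Mir210 was 1.10-fold higher in replicate 1 (1.07 to 1.14; exact binomial adjusted p = 2.25e-08). Mir132 was 1.09-fold higher in replicate 1 (1.02 to 1.17; exact binomial adjusted p = 0.0297). For Mir212 the ratio was 0.902 (0.709 to 1.14; exact binomial adjusted p = 0.658) on 125 and 166 counts, and its interval also holds the ratios of the other 3 genes.

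Thus 3 of the 4 genes passed, all higher in replicate 1, where 31.0% of the 435 genes tested passed in either direction, 12.0% as higher in replicate 1 and 19.1% as higher in replicate 2. A larger share passed at greater depth. Among the 174 genes with 1000 or more counts together, as Mir22, Mir210 and Mir132 have, 64.4% passed, and of the 22 genes with 100000 or more all passed. In size the 3 differences were not unusual for that depth. Of the 174 genes, 73.0% had a larger absolute log2 ratio than Mir22, 47.1% a larger one than Mir132 and 45.4% a larger one than Mir210, and their median was 0.12. With the edgeR exact test and a preset biological coefficient of variation of 0.1, 0 of the 4 genes passed, with 0 at an unadjusted p under 0.05. That variation was assumed as an allowance for spread between animals and was not estimated from these hearts. Only 1 of the 435 genes passed with it, so this test cannot tell whether the differences exceed the spread between animals.

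**Figure D5:**
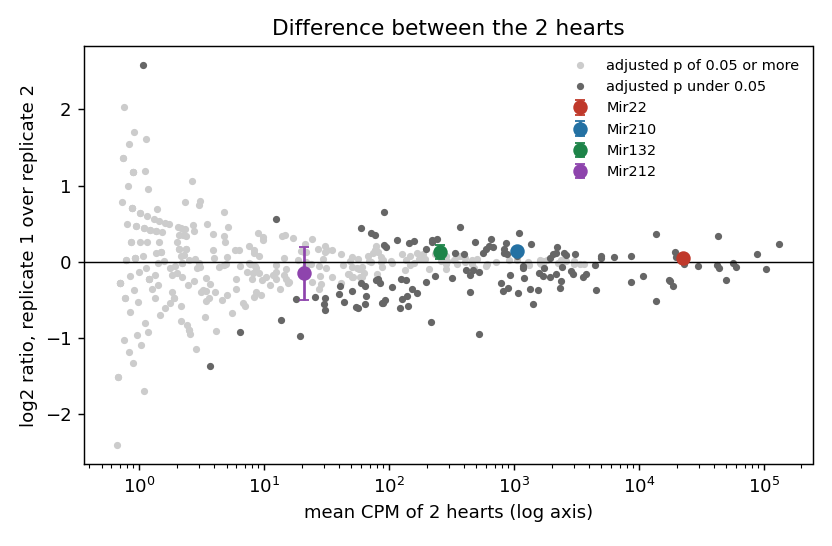
Log2 ratio of replicate 1 over replicate 2 (y axis) against mean CPM (log axis) for 435 genes, dark where the exact binomial adjusted p was under 0.05. The 4 genes (coloured, with exact 95% intervals) lie at 0.056 for Mir22, 0.14 for Mir210, 0.13 for Mir132 and -0.15 for Mir212, and the interval of Mir212 spans 0.

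Ratios within a library do not depend on its total. The exact Fisher tests of these ratios compare 2 libraries on counting error alone, and no test of a ratio with spread between animals was run. This test found a difference for 4 of the 6 ratios to genes outside the 4. Of the 6 ratios among the 4 genes, 1 differed between the libraries by this test. Mir22 over Mir210 in replicate 1 was 0.943 times its value in replicate 2 (Wald 95% interval 0.912 to 0.975; adjusted p = 0.00122). Mir210 over Mir132 changed by a factor of 1.01 (0.938 to 1.09; exact Fisher adjusted p = 0.808), and Mir22 over Mir132 by 0.952 (0.891 to 1.02; exact Fisher adjusted p = 0.190).

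Against myosin intron microRNAs, which lie in heart muscle myosin genes, Mir22 held an intermediate place. It had 0.224 of the counts of Mir208b in replicate 1 and 0.203 in replicate 2. That ratio differed between the libraries beyond counting error (1.105 times, Wald 95% interval 1.097 to 1.114, exact Fisher adjusted p = 4.43e-140). Mir22 exceeded Mir208a by 1.48-fold and 1.83-fold. This ratio also differed between the libraries beyond counting error (0.808 times, Wald 95% interval 0.799 to 0.817, exact Fisher adjusted p = 1.10e-291). Mir208a itself had 15419 CPM in replicate 1 and 11988 CPM in replicate 2. Mir22 exceeded Mir499 by 4.46-fold and 4.52-fold, a ratio that changed by 0.987 times between hearts (0.971 to 1.00; exact Fisher adjusted p = 0.189). Mir132 had 0.0524 and 0.0506 of the counts of Mir499. Mir22 was also 1.13-fold and 1.19-fold above Mir21a, a microRNA linked to cardiac fibroblasts. The ratio to Mir21a differed between the libraries as well (0.948 times, Wald 95% interval 0.938 to 0.958, exact Fisher adjusted p = 1.63e-23).

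The wider list of microRNAs reported to promote hypertrophy was led by Mir208b, Mir23a and Mir22, and Mir22 was thus the third of 15 by level, Mir132 the tenth and Mir212 number 14. The list took 19.4% of counts in each heart. Of its 15 genes 7 were higher in replicate 1, 5 were higher in replicate 2 and 3 did not pass, with a median log2 ratio of -0.023, beside -0.024 over all 435 genes. Over those 435 genes 12.0% were higher in replicate 1 and 19.1% higher in replicate 2, and at 1000 or more counts 64.4% passed in either direction. The 3 that did not pass were Mir212, Mir214 and Mir199a-1.

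MicroRNAs reported to oppose hypertrophy were led by Mir30a at 18643 ± 2868 CPM, Mir98 at 3630 ± 53.0 CPM and Mir185 at 467 ± 24.4 CPM. Of 12 in the list 9 are among the genes counted and 8 could be tested. Mir30a and Mir185 were higher in replicate 2, and 6 did not pass, with a median log2 ratio of -0.068; 2 of 8 is near the 31.0% that passed over all genes. Of the 9, 6 have repeated sequence, the Mir1 and Mir133 genes of heart muscle among them, so their levels of at most 8.89 CPM leave out reads that matched several places.

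The hypoxia-linked list was led by Mir322 at 56684 ± 472 CPM, Mir26b at 29909 ± 735 CPM and Mir21a at 19274 ± 1254 CPM, and Mir210 was number 6 of 13 counted. Of the 13, 5 were higher in replicate 1, Mir210 among them, 7 were higher in replicate 2 and 1 did not pass, with a median log2 ratio of -0.050. The share that passed was 31.0% over all genes, 64.4% at 1000 or more counts and 78.6% at 10000 or more. Mir210 had 0.220 of the counts of Mir107, another microRNA linked to low oxygen, in replicate 1 and 0.206 in replicate 2. That ratio differed between the libraries, on counting error alone, by 1.07 times (Wald 95% interval 1.03 to 1.10; exact Fisher adjusted p = 0.00122), but Mir107 has repeated sequence and its count is uncertain. Of the 13 genes, 8 have repeated sequence.

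Reads from the opposite strand of the 4 genes were not found. All 4 had 0 opposite-strand counts in both libraries, which allows up to 0.471 CPM in replicate 1 and 0.393 CPM in replicate 2, while over all genes 490519 and 593909 counts fell on the opposite strand. Counts of the gene's strand and of both strands were thus the same for Mir22, Mir210, Mir132 and Mir212.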

How the data were processed

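The deposited tables hold whole-number read counts per gene, with no normalization by the authors. Per the files that accompany the tables, they rest on mm10 and GENCODE M4, with 1 alignment file per library; aligner and counter: not given in the sources used here. Of the 3 count columns, the first is the sum of the other two in every gene row, and the second holds 92.9% and 92.8% of gene counts and was read as the gene's strand; this comes from the values. Totals leave out the rows without a gene: 12.6% and 15.5% of reads were unmapped, 35.9% and 34.6% matched several places, and 1.93% and 2.28% fell in no gene.

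GENCODE M21, also on mm10, gave names and positions for 1894 of the 1973 identifiers, matched without version; the 79 others had 0 counts. The Mir132 identifier has a later version there, so the interval counted may differ. All 4 genes were found in the RefSeq hairpin table; folding energy is from ViennaRNA 2.7.2. CPM uses the total on the gene's strand, and values are the mean ± SD of 2 hearts. Intervals and the 3-count floor cover counting error only, since reads carry no stated molecular identifiers. With 1 group of 2 libraries there is no residual spread for a model, so exact binomial tests compared the libraries (threshold 0.05, log2 ratios with 0.5 added counts) and exact Fisher tests compared 12 ratios between hearts, both with Benjamini-Hochberg adjustment. The binomial test was checked on simulated counts with counting error alone, so the check does not cover spread between animals or libraries.

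The genes named are the 4 members, the nearest 2 by likeness, the top 3 of each list and the genes of the ratios; the neighbours in rank Mir450b, Mir574 and Mir679, and Mir214 and Mir199a-1, were named after their values were seen. The members and lists were chosen with earlier results of these data known. Alternatives were counts of both strands, other totals, edgeR TMM factors, DESeq2 size factors, count minimums, preset spreads and single hearts; lists without repeated sequence were chosen after seeing the data. Tools were SciPy 1.17.1, NumPy 2.4.6, pandas 2.3.3 and matplotlib 3.10.9 in Python 3.11.15, and edgeR 4.0.16 and DESeq2 1.42.0 in R 4.3.3.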

Additional observations from a re-analysis of the deposited data

How the results depend on the processing

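Levels moved with the total they are scaled to. With counts of both strands the means were 20743 CPM for Mir22, 979 for Mir210, 238 for Mir132 and 257 for Mir132 and Mir212 together. Without the most abundant gene in the total they were 25791, 1218 and 296 CPM, and 23.8 for Mir212. With reads that matched several places in the total they were 12540, 592, 144 and 11.6 CPM. Each change comes from the new total, and the order of the 4 genes is the same. Single hearts gave 21916 to 22780, 1003 to 1106, 245 to 268 and 19.6 to 21.8 CPM.

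The directions of the 4 genes between hearts held under the 4 alternatives that rescale the libraries (both strands, edgeR TMM, DESeq2 size factors, no most abundant gene); the others leave the ratio nearly as it is. For Mir22, Mir210 and Mir132 the calls were lost under the edgeR exact test with preset variation of 0.1 or 0.2, at log2 ratios of 0.056, 0.14 and 0.13 and an adjusted p of 1. That test called 1 gene of 435 at 0.1 (29 at an unadjusted p under 0.05) and 0 at 0.2 (4 unadjusted), against 135. Adjusted p over all settings ran from 1.17e-69 to 1 for Mir22, 8.15e-13 to 1 for Mir210, 0.00303 to 1 for Mir132 and 0.534 to 1 for Mir212. Mir132 had 0.0489 with a minimum of 1 count, just within the threshold. Without genes of repeated sequence, the hypoxia list had 5 called of 5 tested, a lower count since fewer genes were left. Over all genes tested 31.0% passed, with 64.4% at 1000 or more counts together and 100% at 100000 or more. Pairs of neighbours wider than Mir132 and Mir212 were 31.3% within 1 kb and 24.1% without repeated sequence. Depth limits Mir212 most, with 125 and 166 counts. No paired analysis was possible because there is 1 group.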
